A study of Mus musculus with 74 samples.

Results

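The S3WT late response was the difference between the S3WT arrays at 2 and 4 h of TGF-β (6 arrays, called late) and those at 0 and 0.3 h (6 arrays, called early). These 12 arrays were chosen by their titles from the 74 of the series, each of which measured 8976 mouse cDNA probes in 2 colours. The other arrays belong to S3WT at 1 h (3 arrays) to the lines labelled S2WT, S3KO and S2KO, and to a group labelled S2WT/U0126 (U0126 is an inhibitor of the kinase MEK). On each S3WT array at 0.3, 1, 2 and 4 h, channel 1 held RNA of S3WT cells without TGF-β and channel 2 RNA of S3WT cells given TGF-β for the same time. At 0 h both channels held RNA of untreated cells, so these 3 arrays compared like with like. The baseline therefore mixed self-comparisons with arrays of cells already given TGF-β for 0.3 h. Each group had 3 arrays, and nothing in the labels says that they came from separate cultures. The p-values therefore measure only the spread between arrays of a group, pooled over all 74 arrays of the series, and that spread may be technical.

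The labels give neither the dose of TGF-β nor the tissue or cell type. In the published study with this design the cells were mouse embryo fibroblasts, and S2 and S3 stand for Smad2 and Smad3. S3WT is then the wild-type line set beside the Smad3 knockout line S3KO. A ratio of 2 channels gives no level of a gene, so the cell type could not be checked by its markers. Of 12 fibroblast markers, 5 were tested, on 9 probes, and none passed the test of the late response. Probes for epithelial (1 probe), endothelial (3 probes), leukocyte (2 probes) and muscle (1 probe) markers gave no call either. The highest value among them was a log2 difference of 1.45 for 1 of 3 probes of Cdh5, an endothelial cadherin (adjusted p = 0.344). In RNA from whole cultures, fewer cells of a type and less RNA per cell cannot be told apart.

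TGF-β binds a type II receptor kinase, which phosphorylates a type I receptor such as Tgfbr1. The activated receptor phosphorylates Smad2 and Smad3, which join Smad4 and enter the nucleus to act on target genes. Among the targets are brakes on the pathway: the inhibitory Smad7, the corepressors Skil and Tgif1, and the ubiquitin ligases Smurf1 and Smurf2. In fibroblasts the pathway is known for raising matrix and contractile genes and for an early wave of transcription factors.

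Values below are log2 ratios centred on the median of their array. They were read as TGF-β over no TGF-β, which is likely but not stated in the sources used here. The arrays gave 8250 to 8713 measured probes each, with medians before centring from -0.217 to 0.132. The median absolute deviation of a centred array ran from 0.218 to 0.346, and Pearson's r between the 12 arrays over the 5889 probes measured on all of them ran from 0.037 to 0.476, as a description across probes. Of the 12 arrays, replicate 2 at 2 h received the lowest quality weight, 0.433.

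Among 8290 probes tested, 4 passed an adjusted p of 0.05 (0.0483%), which is what "called" means here. Probes for Creb3l2, Csdc2 and Dapk2 were higher on the late than the early arrays (0.0362% of probes tested were called higher) and a probe for Ifitm3 was lower (0.0121% were called lower). For Dapk2 and Ifitm3 the late mean set against 0 was not called. Their values farthest from 0 were on 0 h arrays, where both channels were untreated. Without centring of the arrays, 1 probe was called higher and 2 lower, with scaling of the arrays 35 and 12, and with array weights 31 and 12. The calls borrow the spread of all 74 arrays: in fits of the S3WT arrays alone, as 4 groups or as 2 groups of 6, limma's moderated test called none, with 694 and 769 probes at an unadjusted p under 0.05 against 597 (7.2%) in the fit of all arrays. As 4 groups, the adjusted p of the called probes then ran from 0.24 (Creb3l2) to 0.56 (Dapk2 and Ifitm3). In that fit the SE was 0.577 for Dapk2, 0.413 for Ifitm3, 0.327 for Csdc2 and 0.189 for Creb3l2. With all arrays it was 0.339, 0.222, 0.25 and 0.193, so for the first 3 the SE given below is smaller than that from the S3WT arrays alone. The count also moved with single arrays. Leaving out replicate 2 of the 0 h or 2 h group or replicate 1 of the 4 h group gave 2. Leaving out 0.3 h array 3 or 2 h array 1 gave 7, and 0.3 h array 2 gave 9. With 0.3 h array 1 or 0 h array 3 left out there were 17, and with array 3 of the 2 h or 4 h group left out there were 24. Of all 8290 estimates, 49.7% were above 0.

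RefSeq promoters of the called genes, from GRCm38.p6, are shown for the genes that RefSeq's promoter table lists, Creb3l2, Dapk2 and Ifitm3, with those of Smurf1 and Smurf2, the pair of ubiquitin ligases described further on. Each runs 5′ to 3′ from 250 bases before to 50 after the gene's start, and capitals mark GTCTG or CAGAC (the Smad element on either strand) and TGANTCA (the AP-1 element).
Creb3l2 promoter, chr6:37442099-37442398, minus strand: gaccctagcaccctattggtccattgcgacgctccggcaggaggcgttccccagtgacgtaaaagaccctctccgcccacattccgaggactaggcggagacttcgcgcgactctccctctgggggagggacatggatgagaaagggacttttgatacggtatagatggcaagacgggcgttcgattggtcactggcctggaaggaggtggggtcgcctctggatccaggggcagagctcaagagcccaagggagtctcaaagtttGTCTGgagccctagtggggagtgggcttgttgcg
Dapk2 promoter, chr9:66157976-66158275, plus strand: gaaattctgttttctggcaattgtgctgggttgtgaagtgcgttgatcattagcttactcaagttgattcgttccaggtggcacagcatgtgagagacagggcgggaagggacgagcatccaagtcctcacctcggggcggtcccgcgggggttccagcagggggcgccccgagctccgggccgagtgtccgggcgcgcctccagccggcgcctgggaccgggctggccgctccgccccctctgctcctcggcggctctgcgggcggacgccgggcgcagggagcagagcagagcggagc
Ifitm3 promoter, chr7:141010695-141010994, minus strand: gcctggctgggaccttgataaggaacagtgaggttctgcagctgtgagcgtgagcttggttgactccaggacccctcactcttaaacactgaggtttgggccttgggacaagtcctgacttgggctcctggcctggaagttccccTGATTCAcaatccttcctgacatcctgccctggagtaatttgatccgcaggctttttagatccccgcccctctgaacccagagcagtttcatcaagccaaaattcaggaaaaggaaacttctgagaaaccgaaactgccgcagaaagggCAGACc
Smurf1 promoter, chr5:144965781-144966080, minus strand: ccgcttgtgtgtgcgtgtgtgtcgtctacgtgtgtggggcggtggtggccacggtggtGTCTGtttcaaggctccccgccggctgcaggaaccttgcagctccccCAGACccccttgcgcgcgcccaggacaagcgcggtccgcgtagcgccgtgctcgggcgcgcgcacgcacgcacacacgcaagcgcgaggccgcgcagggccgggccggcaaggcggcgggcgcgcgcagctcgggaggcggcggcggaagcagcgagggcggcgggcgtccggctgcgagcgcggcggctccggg
Smurf2 promoter, chr11:106920666-106920965, minus strand: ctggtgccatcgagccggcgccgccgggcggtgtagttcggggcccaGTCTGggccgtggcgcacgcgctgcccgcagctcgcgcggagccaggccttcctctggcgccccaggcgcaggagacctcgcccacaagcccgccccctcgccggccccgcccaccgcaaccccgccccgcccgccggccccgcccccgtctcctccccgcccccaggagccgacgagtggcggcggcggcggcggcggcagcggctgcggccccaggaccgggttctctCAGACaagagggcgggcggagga
The Creb3l2 window holds 1 Smad element and the Ifitm3 window 1 Smad element and 1 AP-1 element. The Smurf1 and Smurf2 windows hold 2 Smad elements each, and none of the searched motifs was found in the Dapk2 window. The search also covered the Smad palindrome GTCTAGAC and the E-box CACGTG, neither of which is in these 5 windows. Over all 32851 promoters of this length, 49.6% hold the Smad element, 7.81% the AP-1 element, 7.15% the E-box and 0.213% the palindrome, so a match to the short element is common. The motifs share no letters with one another in these windows. Noct and Tgfbr1 were searched too and are not shown. The Noct window holds 2 Smad elements, 1 Tgfbr1 window holds 1, and the other Tgfbr1 window holds none of the motifs. The matches describe the letters alone.

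Creb3l2 encodes a membrane-bound transcription factor of the endoplasmic reticulum that is released by proteolysis. Its probe 887 read -0.44, -0.70 and -0.37 on the 0 h arrays and -0.71, -0.05 and -0.44 at 0.3 h. At 2 h the values were 0.72, 0.52 and 0.48, and at 4 h they were 1.28, 1.12 and 0.31. All 6 late arrays lay above all 6 early arrays. The early values were negative also at 0 h, where both channels held untreated RNA. Their negative sign is therefore not read as a fall with TGF-β. The mean went from -0.45 ± 0.24 (SD, n = 6) to 0.74 ± 0.39 (SD, n = 6), a log2 difference of 1.19 ± 0.19 (SE), or 2.28-fold (adjusted p = 0.000863). The probe remained called without any single one of the 12 arrays, with differences from 1.10 to 1.34. A further Creb3l2 probe, 7439, differed by 0.75 ± 0.18 (adjusted p = 0.0545), with 5 of 6 late arrays above all early ones. Probe 3157 differed by 1.01 ± 0.57 (adjusted p = 0.776), and its late mean rests on a value of 6.63 on 1 array, 4 h replicate 2. Averaged over the 3 probes, Creb3l2 differed by 0.98 ± 0.23 (adjusted p = 0.0575).

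Csdc2 encodes a cold shock domain RNA-binding protein. Its probe 2622 read 0.36, -0.99 and -0.12 at 0 h, 0.23, -0.16 and 0.19 at 0.3 h, 1.19, 0.48 and 0.85 at 2 h, and 1.59, 2.35 and 0.55 at 4 h. The lowest late array lay above the highest early one, so the groups did not overlap. The difference was 1.25 ± 0.25 (SE), or 2.38-fold (adjusted p = 0.0195). The call was lost when 0 h array 2 (adjusted p = 0.0735), 2 h array 1 (0.0563), 4 h array 1 (0.0587) or 4 h array 2 (0.12) was left out, with the 0.3 h arrays alone as baseline (1.08, adjusted p = 0.165) and without centring (adjusted p = 0.055). The other Csdc2 probe, 7126, went the other way at -1.23 ± 0.94 (adjusted p = 0.94), with 4 h values of 1.81, -4.53 and -4.63, and the mean of both probes differed by 0.03 ± 0.44.

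Dapk2 encodes a calmodulin-regulated kinase linked to cell death and autophagy. Probe 4861 read -2.43, 0.22 and -3.16 at 0 h, 0.14, 0.13 and -1.92 at 0.3 h, 0.69, 0.49 and -0.05 at 2 h, and 0.52, 0.71 and 0.34 at 4 h. The late arrays were close to each other, and 3 of the 6 early arrays were far below them while the other 3 were near 0. The difference was 1.62 ± 0.34 (SE), or 3.08-fold (adjusted p = 0.0326). The 0 h arrays alone as baseline gave 2.24 ± 0.42 and the 0.3 h arrays alone gave 1.00 ± 0.42 (adjusted p = 0.638). Set against 0 with no baseline, the late mean was 0.45 ± 0.24 (SE, adjusted p = 0.336). Leaving out any of 7 of the 12 arrays ended the call: 0.3 h array 3 (adjusted p = 0.141), 0 h array 1 (0.0767) or 3 (0.0734), 2 h array 1 (0.0686) or 2 (0.079), and 4 h array 1 (0.0631) or 2 (0.0808). It was also lost without centring (adjusted p = 0.0711). The other Dapk2 probe, 1677, differed by -0.34 ± 0.59 (adjusted p = 0.999).

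Ifitm3, an interferon-induced membrane protein that restricts virus entry, was the called gene that was lower on the late arrays. Its probe read 0.52, 2.36 and 0.42 at 0 h, 1.59, 0.02 and 0.72 at 0.3 h, 0.08, -1.26 and 0.03 at 2 h, and -0.07, -0.01 and 0.05 at 4 h. The groups overlapped: the early arrays were spread from 0.02 to 2.36 and 5 of the 6 late arrays were near 0. The ratio fell by 1.14 ± 0.22 (SE) on the log2 scale, 2.20-fold (adjusted p = 0.0195). It was no longer called once 0 h array 2 (-0.82, adjusted p = 0.0735), 2 h array 2 (-0.92, adjusted p = 0.0804) or 4 h array 1 (-1.12, adjusted p = 0.05) was left out, or with the 0.3 h arrays alone as baseline (-0.98, adjusted p = 0.157). With no baseline, the late mean was -0.20 ± 0.16 (SE, adjusted p = 0.584). Of the 9 interferon and inflammatory probes tested (median difference 0.064), 1 was called, Ifitm3, and Ifitm2, its neighbour in the family, differed by -0.25 ± 0.25 (adjusted p = 0.988).

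**Figure D1:**
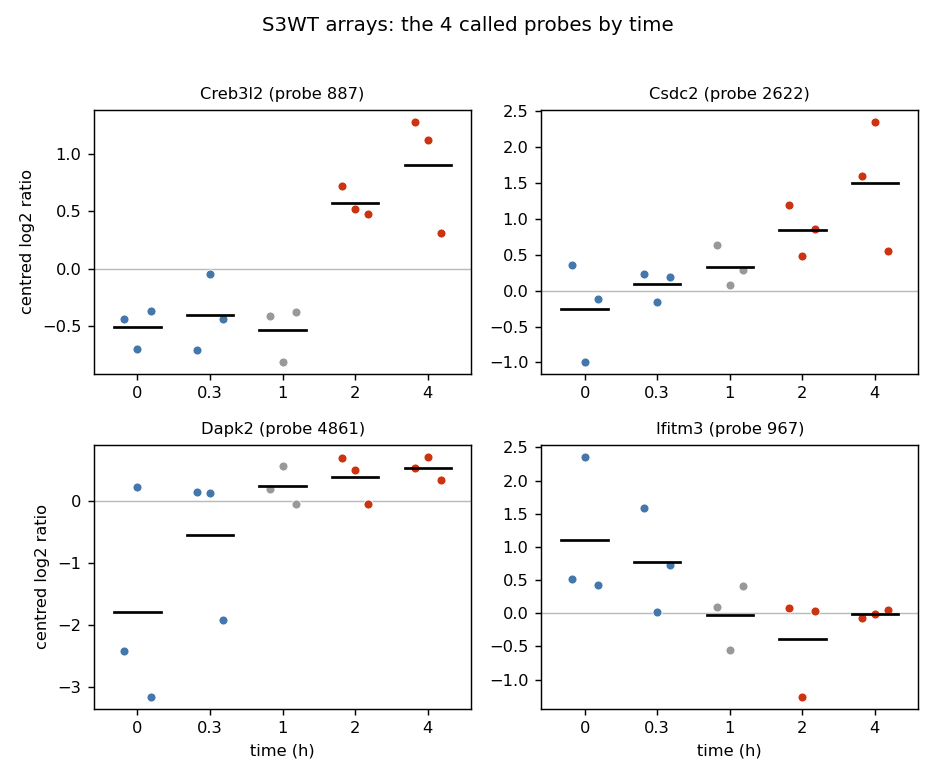
Centred log2 ratio (vertical axis) against time in h (horizontal axis) on the 15 S3WT arrays for the 4 called probes. Each point is an array (blue, early; grey, 1 h; red, late) and each bar the mean of 3 arrays. The 6 late values lie above the 6 early ones for Creb3l2 and Csdc2, while for Dapk2 and Ifitm3 the early arrays are widely spread and the groups overlap.

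Next in rank among probes that were higher, none of them called, came Gpatch2l, the kelch protein Klhdc3, Plac8, the F-box protein Fbxo9 and the Rab-regulating protein Tbc1d1, with differences from 0.76 (Fbxo9) to 2.24 (Klhdc3) and an adjusted p of 0.0545 each. Hbegf followed with 1.36 ± 0.32 (adjusted p = 0.0564). Tbc1d1 read -0.55, -0.55 and -0.26 at 0 h, -0.01, -0.06 and -0.46 at 0.3 h, 0.45, -0.06 and 0.15 at 2 h and 0.85, 1.02 and 0.62 at 4 h. Of its late arrays 5 lay above all early ones, and the 4 h arrays were the highest. Gpatch2l, Klhdc3 and Plac8 showed another form: their late medians were -0.02, 0.04 and -0.02, and their early arrays reached down to -2.18, -3.17 and -3.10. For Gpatch2l the late mean of 0.61 also holds a value of 3.35 on 2 h replicate 2. Fbxo9 was at 0.47 with 0.3 h array 2, at -1.78, left out.

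Among probes that were lower and not called, Lrrc56, a gene linked to cilia, differed by -1.80 ± 0.39 (adjusted p = 0.0509). Zfas1, a long non-coding RNA gene that hosts small nucleolar RNAs, differed by -0.65 ± 0.15 (adjusted p = 0.0545). Its early arrays ran from 0.24 to 0.75 and its late arrays from -0.49 to 0.15, so all 6 late arrays were below all 6 early ones. The same held for Ndufb3, a subunit of respiratory complex I (-0.44 ± 0.13, adjusted p = 0.165), and for Cpt1c, an isoform of carnitine palmitoyltransferase (-0.44 ± 0.13, adjusted p = 0.165). At 0 h, with both channels untreated, the means were 0.464 for Zfas1, 0.431 for Ndufb3 and 0.67 for Cpt1c. At 2 and 4 h they were -0.07 and -0.248 for Zfas1, -0.026 and 0.068 for Ndufb3, and 0.226 and 0.043 for Cpt1c. The differences of Ndufb3 and Cpt1c are thus not read as a fall with TGF-β. Zfp36l1, an mRNA decay factor, differed by -0.57 ± 0.16 and -0.53 ± 0.21 on its 2 probes (adjusted p = 0.165 and 0.466). The RNA-binding Lsm14b (-1.30 ± 0.30), the nuclease Mus81 (-2.06 ± 0.54), Hirip3 (-0.97 ± 0.26) and the iron-sulfur cochaperone Hscb (-0.75 ± 0.21) made up the 10, with adjusted p from 0.0545 to 0.156. Lsm14b, Mus81 and Hirip3 had early arrays up to 3.92, 3.78 and 2.16.

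**Figure D2:**
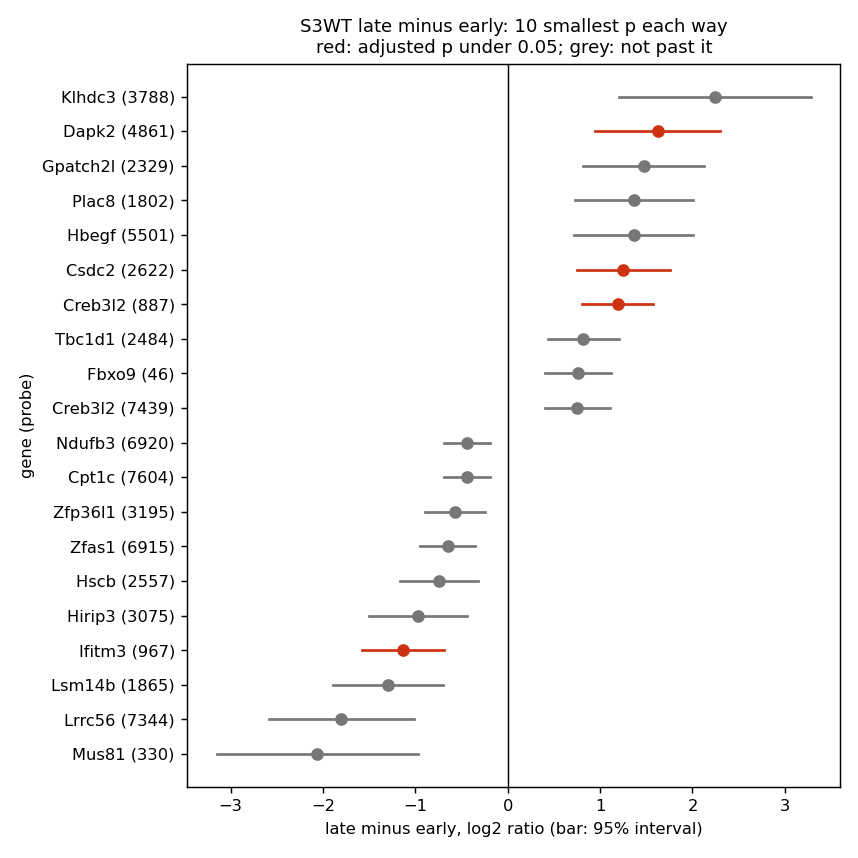
Late minus early difference in log2 ratio (horizontal axis) with its 95% interval for the 10 probes of smallest p in each direction (vertical axis, gene and probe). Red marks the 4 called probes and grey those not past the threshold. The estimates run from -2.06 (Mus81) to 2.24 (Klhdc3), and the largest ones have the widest intervals.

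Across the 5889 probes measured on all 12 arrays, 42 (0.713%) had every late array above every early one and 49 (0.832%) had every late array below. These counts depend on centring: with the values as deposited they were 15 and 69. Of the 4 called probes, 2 were among them, Creb3l2 and Csdc2. Hbegf, Bhlhe40, Noct, Tgfbr1, Ets1, Col5a2 and 2 of 3 Smurf2 probes were among the 42, and Zfas1, Ndufb3 and Cpt1c among the 49. The counts set late arrays against early ones and not against 0. Ndufb3, for one, had a mean of 0.431 at 0 h and of -0.026 and 0.068 at 2 and 4 h.

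The ligands and receptors of the TGF-β family gave no call on 11 probes of 9 genes, with a median difference of -0.015 beside -0.002 for all probes tested. At an unadjusted p under 0.05, 2 of the 11 were higher (18.2%) and none lower, against 4.07% and 3.14% of all probes. Tgfbr1, the type I receptor kinase, read -0.86, -0.51 and -0.34 at 0 h, -0.20, -0.52 and -0.35 at 0.3 h, 0.39, -0.11 and 0.08 at 2 h, and 0.54, 0.49 and 0.50 at 4 h. Its groups did not overlap, the 4 h arrays were the highest and lay within 0.05 of each other, and the difference was 0.78 ± 0.24 (adjusted p = 0.216). Acvr1, another type I receptor, differed by 0.36 ± 0.14 (adjusted p = 0.449) and the type II receptor Bmpr2 by 0.35 ± 0.24 (adjusted p = 0.891). The 3 probes of Tgfbr3, a coreceptor, ran from -0.31 to 0.07, and Eng, another coreceptor, was at -0.26 ± 0.33.

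Of 25 probes for Smads and their regulators, none was called, and the median difference was 0.124. At an unadjusted p under 0.05, 5 were higher (20%) and none lower, against 4.07% and 3.14% of all probes. Smurf1, a ubiquitin ligase for Smads and receptors, read 0.37, 0.41 and 0.50 at 0 h and 0.36, 0.36 and 0.06 at 0.3 h. It read 0.80, 1.10 and 0.99 at 2 h and 1.08, 1.03 and 0.46 at 4 h, so that 5 of 6 late arrays lay above all early ones, for a difference of 0.57 ± 0.15 (adjusted p = 0.123). The related ligase Smurf2 differed by 0.71 ± 0.20 on probe 2306 and by 0.32 ± 0.10 on probe 5215 (adjusted p = 0.165 and 0.216), and on both all late arrays were above all early ones. Probe 2306 had means of -0.867 at 0 h and -0.537 at 0.3 h, against -0.029 at 2 h and 0.038 at 4 h. Its difference thus rests on negative early values, found also at 0 h, where both channels were untreated. Probe 5215 had means of -0.079 and 0.006 at 0 and 0.3 h, and 0.315 and 0.254 at 2 and 4 h. The other Smurf2 probe, 4133, was at -0.06 ± 0.45. The corepressors Tgif1 and Skil were at 0.48 ± 0.17 and 0.47 ± 0.21 (adjusted p = 0.344 and 0.568), and the further Tgif1 probe at 0.12 ± 0.16. Smad7, the inhibitory Smad, was at 0.15 ± 0.20 on probe 7665, while probe 5186 had too few values for a test. The probes of Smad3 and Smad4 lay between -0.26 and 0.15 (adjusted p = 0.999 each).

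Known TGF-β-induced genes gave no call on 17 probes of 14 genes. At an unadjusted p under 0.05, 6 of the 17 were higher (35.3%) and none lower, against 4.07% and 3.14% of all probes. The median was 0.149. Tgif1 and Skil stand in this list too. This list and the others were chosen with earlier results of these data known, so their shares give no independent support for a response. Hbegf, a ligand of the EGF receptor, read 0.06, 0.25 and 0.15 at 0 h, 0.41, 0.23 and 0.42 at 0.3 h, 2.43, 1.21 and 1.25 at 2 h and 1.34, 2.62 and 0.87 at 4 h. Its late arrays lay above its early arrays without overlap and were more widely spread (SD 0.72 against 0.14). Bhlhe40, a transcriptional repressor tied to the circadian clock, had early arrays from -0.39 to 0.43, values of 1.33, 1.30 and 1.28 at 2 h and of 0.52, 0.86 and 0.53 at 4 h, for a difference of 0.99 ± 0.24 (adjusted p = 0.0702). Gadd45b, a stress-inducible regulator of kinase signalling, differed by 0.86 ± 0.28 (adjusted p = 0.278), with late values from 0.50 to 2.57. Klf10, a zinc finger factor first found as TGF-β-inducible, was at 0.51 ± 0.22 (adjusted p = 0.547). The transcription factor Snai1 (0.15 ± 0.25), the small GTPase Rhob (-0.07 ± 0.30) and the matrix protein Ccn1 (-0.33 ± 0.41) had intervals that include 0.

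The arrays at 1 h stood outside the comparison and divided these genes. Klf10 had a mean of 1.38 ± 0.84 (SD, n = 3) at 1 h, 0.91 ± 0.44 at 2 h and 0.04 ± 0.30 at 4 h, against -0.03 ± 0.09 (SD, n = 6) on the early arrays. Tgif1 (probe 3052) went from 0.87 at 1 h and 0.90 at 2 h to 0.30 at 4 h, and Skil from 0.62 and 0.58 to 0.02. Bhlhe40 was at 1.27, 1.30 and 0.64, Noct, a clock-linked phosphatase, at 0.84, 0.89 and 0.73, and Hbegf at 1.14, 1.63 and 1.61. For each of these 6 genes the 3 arrays at 1 h lay above all 6 early arrays, as they did for 1.59% of the 5645 probes measured on all 15 arrays. Creb3l2 (-0.53 on probe 887), Smurf1 (0.17), Tgfbr1 (-0.39) and Tbc1d1 were within or below the range of their early arrays at 1 h and above it on average at 2 and 4 h. Of the 42 probes with late arrays above all early ones, 11 had the 1 h arrays above too, and 31 did not. Among the 49 below, 2 also lay below at 1 h, where 1.06% of all probes did. Both sets were picked by these same early arrays, so their shares at 1 h can exceed those of all probes through that choice alone.

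**Figure D3:**
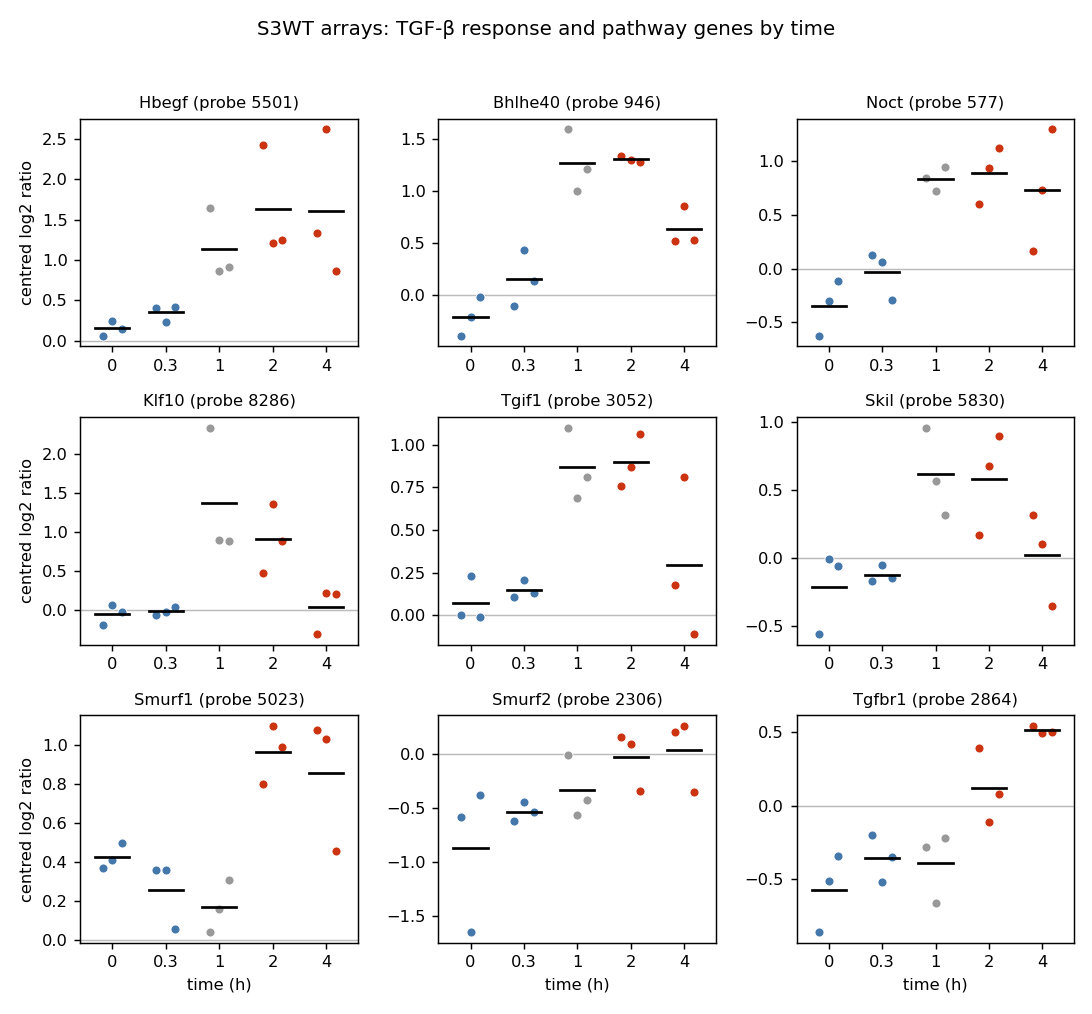
Centred log2 ratio (vertical axis) against time in h (horizontal axis) on the S3WT arrays for 9 TGF-β response and pathway genes. Points are arrays (blue, early; grey, 1 h; red, late) and bars the means of 3 arrays. Hbegf, Bhlhe40, Noct, Klf10, Tgif1 and Skil are above their early arrays at 1 h, while Smurf1 and Tgfbr1 are not; Klf10 and Skil are back near 0 at 4 h, with means of 0.04 and 0.02.

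Further lists gave 0 calls. Their counts stand beside 4.07% of all probes tested that were higher, and 3.14% lower, at an unadjusted p under 0.05. Of 10 circadian probes, 2 were higher at an unadjusted p under 0.05, Bhlhe40 and Noct (1.00 ± 0.27, adjusted p = 0.147). Of 22 probes for matrix proteins and proteases, 3 were higher and 1 was lower, with a median of 0.080. The crosslinking enzymes Lox and Loxl2 were at 0.39 ± 0.14 and 0.31 ± 0.14 and the collagen Col5a2 at 0.37 ± 0.15 on probe 3022 (adjusted p = 0.344, 0.634 and 0.525). The other probe of Loxl2 was at 0.09, and those of Col5a2 at 0.34 and 0.03. The protease inhibitor Timp2 was at -0.37 ± 0.18 (adjusted p = 0.652), and at -0.46 ± 0.28 on its other probe. Both values rest on 2 h replicate 2, without which they were -0.08 and -0.11. Of 17 actin and contractile probes 3 were higher, for Csrp2 (0.51 ± 0.23), Flna (0.38 ± 0.17) and Actn1 (0.41 ± 0.18), with a median of 0.185 and adjusted p from 0.568 to 0.628. With 0 h array 2 left out, Actn1 was at 0.07 and Flna at 0.18, and with 4 h array 2 left out Csrp2 was at 0.30. The remaining Flna probes ran from -0.18 to 0.15, and the other Actn1 probe was at 0.30.

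The next lists stand beside the same shares of all probes, 4.07% higher and 3.14% lower. The immediate early and stress genes had 2 of 12 probes higher at an unadjusted p under 0.05, Gadd45b and the AP-1 subunit Fosl2 (0.81 ± 0.40, adjusted p = 0.688). The EGF receptor ligands and feedback genes had 1 of 10, Hbegf. Cell cycle genes had 1 of 24 probes higher (4.17%, near the share of all probes), the phosphatase Cdc25a, and a median of -0.116. Cdc25a was at 0.68 ± 0.26 on probe 8102 (adjusted p = 0.376), and at 0.39 with 2 h array 3 left out. Regulators of epithelial-mesenchymal transition had 1 of 10 lower, Twist1 (-0.27 ± 0.13, adjusted p = 0.647), and the 6 late arrays of Ets1 lay above its early ones (0.54 ± 0.33, adjusted p = 0.828). Sterol and lipid genes had 1 of 11 higher, the monoglyceride lipase Mgll (0.91 ± 0.26, adjusted p = 0.165), and redox genes 1 of 7, Gclm (0.94 ± 0.36, adjusted p = 0.434), which was at 0.44 with 0.3 h array 1, at -3.37, left out. Mgll read -1.35, -1.34 and -0.12 at 0 h, where both channels were untreated, and -0.17, -0.30 and 0.18 at 0.3 h. Its late arrays ran from 0.01 to 1.19. None of 8 zinc and metallothionein probes and none of 3 ribosomal protein probes passed an unadjusted p of 0.05. Mt1, a metallothionein, was at -0.39 ± 0.21 (adjusted p = 0.734), and at -0.04 without 2 h replicate 2. Outside the lists, Arid5b, a DNA-binding protein of the ARID family, was at -0.48 ± 0.14 (adjusted p = 0.216), with 4 of 6 late arrays below all early ones.

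The 2 parts of the baseline were compared next, since 0 h arrays carry no treatment and 0.3 h arrays do. Of 8526 probes, 13 were called (0.152%), 8 higher (0.0938%) and 5 lower (0.0586%) at 0.3 h. The count was 4 with 0.3 h array 1 left out and 22 with 0 h array 3 left out. Of the 13, 4 have no gene symbol. The called genes were Epha8 (5.32 ± 0.85), Tat (4.69 ± 0.93), Rfxank (3.62 ± 0.78), Ankrd27 (3.34 ± 0.64) and Hirip3 (1.56 ± 0.35), which rose, and Zfyve26 (-3.52 ± 0.69), Arrb1 (-3.22 ± 0.69), Rnf25 (-3.16 ± 0.59) and D5Ertd579e (-1.13 ± 0.25), which fell. Several of these calls rest on single arrays. With 0 h array 3 left out, Ankrd27 was at 1.86 (adjusted p = 0.135) and Arrb1 at -1.71 (adjusted p = 0.29). Zfyve26 was at -1.95 (adjusted p = 0.142) with 0.3 h array 1 left out. With 0.3 h array 2 left out, Rnf25 was at -1.97 (adjusted p = 0.142) and Hirip3 at 1.18 (adjusted p = 0.255). Leaving out 0.3 h array 1 also ended the calls of Ankrd27, Arrb1 and Hirip3, 0.3 h array 2 those of Ankrd27 and Arrb1, 0 h array 1 that of Hirip3, and 0 h array 2 those of Hirip3 and Rnf25. Epha8, an ephrin receptor, read 0.81, -1.65 and 0.56 at 0 h and 5.39 and 5.07 on the 2 arrays that measured it at 0.3 h. At 1, 2 and 4 h its values ran from -0.35 to 1.58. Rnf25, a ubiquitin ligase, read 0.45, 1.48 and 0.21 at 0 h and -0.32, -4.83 and -2.21 at 0.3 h. Other called probes had values far from 0 at 0 h, where both channels were untreated. Ankrd27 read -1.63, -2.48 and -6.50 at 0 h, and Arrb1 (probe 5004) reached 4.90. Tat (-1.89 and -4.34 at 0 h) and Rfxank (-0.79 and -5.05 at 0 h) were measured on 2 arrays of each group. These differences are thus not read as responses at 0.3 h. Hirip3, with 1.58, 2.16 and 0.52 at 0.3 h against -0.19, -0.39 and 0.17 at 0 h, is the gene of this set that also stood among the 10 lower in the late response. Of the 4 genes called in the late response, none was called between 0.3 and 0 h; the differences were 0.11 ± 0.27 for Creb3l2 (probe 887) and -0.32 ± 0.31 for Ifitm3. Dapk2 (probe 4861) differed by 1.24 ± 0.48 (adjusted p = 0.657).

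Between the 4 h and 2 h arrays, 1 of 8639 probes was called (0.0116%). Eif2s3y, a Y-linked translation factor subunit, was higher at 4 h than at 2 h by 3.26 ± 0.63 (adjusted p = 0.0429). Its 2 h arrays read -0.19, -4.30 and -5.63, its 4 h arrays 0.18, -0.32 and -0.20, and its early arrays ran from -2.89 to -0.34, so the 2 h group was the widely spread one. The call was lost when 2 h array 2 (2.80, adjusted p = 0.194), 2 h array 3 (2.13, adjusted p = 0.153) or 4 h array 2 (3.36, adjusted p = 0.0626) was left out. The count of calls was 32, 4 and 20 with 2 h array 1, 2 or 3 left out, and 12 and 16 with 4 h array 1 or 3 left out. Creb3l2 (probe 887) differed by 0.33 ± 0.27 between 4 and 2 h.

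The S3WT response was set against the same late minus early difference in S2WT (the other wild-type line), S2KO and S3KO, each with 12 arrays. The 3 comparisons share the S3WT arrays. In S3KO the labels name cells without TGF-β for both channels at 0.3 h, so its baseline had no treated arrays by that label. The test of the difference of responses called 0 of 7756 probes against S2WT (0%, with 384 at an unadjusted p under 0.05) and 0 of 7612 against S3KO (0%, with 533). Against S2KO it called 1 of 7690 (0.0130%, with 595 at an unadjusted p under 0.05), probe 1546, which has no gene symbol and differed by -1.80 ± 0.35 (adjusted p = 0.0292). Counts ran from 0 to 17 as each of the 24 arrays was left out, the highest with 4 h array 2 of S2KO. Against S3KO the count was 11 with 0 h array 3 of S3KO left out, and 1 with 2 h array 3 of S3KO or 0 h array 2 of S3WT left out. Against S2WT it was 1 with 0.3 h array 3 of S3WT left out.

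For Creb3l2 (probe 887) the late minus early difference was 1.19 ± 0.19 in S3WT, 0.87 ± 0.19 in S2WT, 1.39 ± 0.19 in S2KO and 0.41 ± 0.19 in S3KO. The S3WT response exceeded that of S3KO by 0.79, with a 95% interval from 0.24 to 1.33 (adjusted p = 0.548). Csdc2 (probe 2622) was at 1.25 in S3WT, 1.27 in S2WT, 1.82 in S2KO and -0.07 in S3KO (SE 0.25 each). Its difference from S3KO was 1.32, from 0.61 to 2.03 (adjusted p = 0.382), and that from S2WT -0.02, from -0.73 to 0.69. Dapk2 (probe 4861) was at 1.62, 0.85, 0.59 and -0.04 in the same order, with a difference from S3KO of 1.67, from 0.67 to 2.66 (adjusted p = 0.433).

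Ifitm3 was at -1.14 in S3WT and at -0.26, -0.16 and 0.03 in S2WT, S2KO and S3KO (SE 0.22 each). Its S3WT response was lower than each of theirs, by differences of -0.88, -0.98 and -1.17 whose intervals exclude 0 before adjustment and whose adjusted p were 0.902, 0.398 and 0.382. Hbegf was at 1.36 ± 0.32 in S3WT, 1.99 in S2WT, 2.73 in S2KO and 0.43 in S3KO. Bhlhe40 was at 0.99 in S3WT and -0.16 in S3KO, a difference of 1.15, from 0.46 to 1.84 (adjusted p = 0.433). Smurf1 was at 0.57, 0.58, 0.64 and 0.23 in S3WT, S2WT, S2KO and S3KO, and its difference from S3KO of 0.34 ran from -0.08 to 0.76. Zfas1 was at -0.65 in S3WT and 0.20 in S3KO, a difference of -0.85, from -1.26 to -0.43 (adjusted p = 0.298). None of these genes passed the test of a difference between lines, and the intervals do not show that the lines respond alike. Creb3l2, Csdc2, Dapk2, Ifitm3, Zfas1 and Hbegf ranked high by p in S3WT and were named for those values. Hbegf also stood, with Bhlhe40 and Smurf1, in sets chosen with earlier results of these data known. The first choice tends to move unadjusted intervals away from 0, and the second can do so. The unadjusted intervals and the contrasts between lines given for these genes are therefore no support for a difference between lines.

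**Figure D4:**
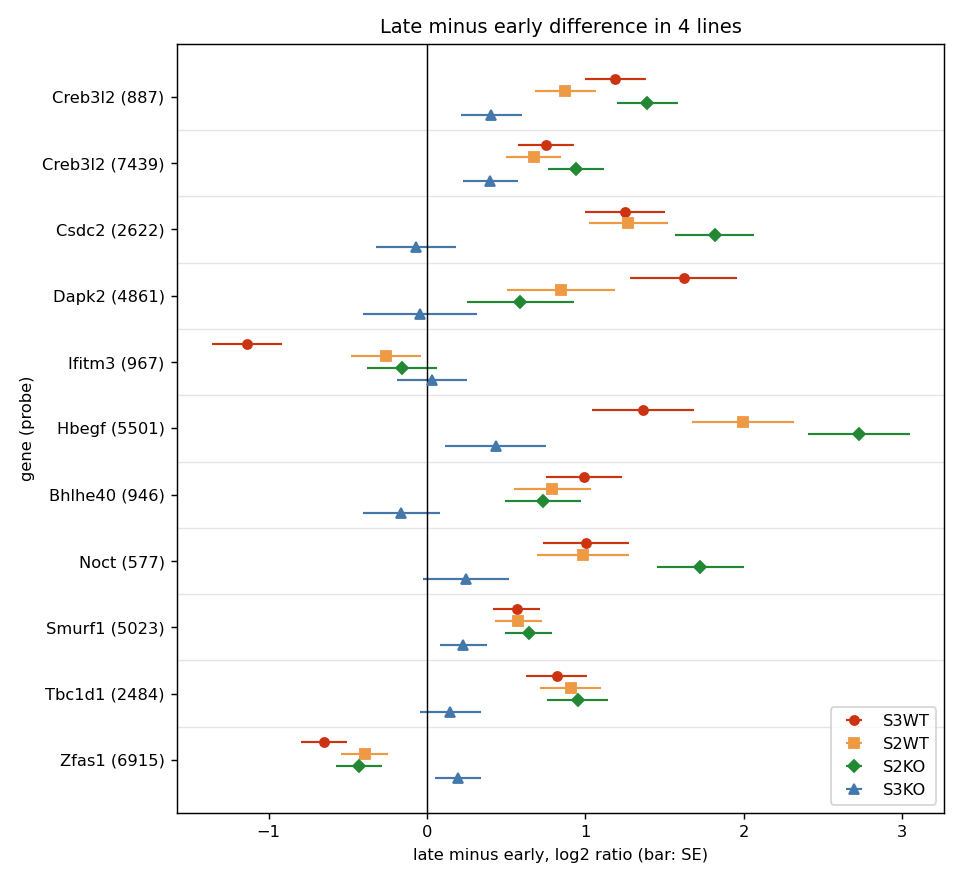
Late minus early difference in log2 ratio (horizontal axis, bar SE) for 11 probes (vertical axis, gene and probe) in S3WT, S2WT, S2KO and S3KO. S3KO is nearest to 0 for the probes of Creb3l2, Csdc2, Dapk2, Ifitm3, Hbegf, Bhlhe40, Noct, Smurf1, Tbc1d1 and Zfas1 shown, and no difference between lines passed the adjusted test for them. The probes were named for their S3WT values or from sets chosen with earlier results of these data known. How often S3KO is nearest to 0 over all probes was not counted, so the order is no support for a difference between lines. The S3KO arrays at 0.3 h are labelled as without TGF-β in both channels.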

How the data were processed

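Per the labels, each of 74 dual-channel arrays set RNA without TGF-β (channel 1) against RNA with TGF-β (channel 2), except at 0 h and, in S3KO, at 0.3 h. The authors deposited 1 log2 ratio per probe and array. The scanner, dyes, background correction and normalisation behind it: not given in the sources used here. Channel signals were not used here, so precision rests on how many arrays there were. Values equal to 16.61, the log2 of 100000 (1344 in all, 222 on the 12 S3WT arrays), were set to missing and each array was centred on its median. Replicates were not identical (r at most 0.476).

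Group means over 74 arrays in 25 groups were fitted per probe in R 4.3.3, and variances moderated with limma 3.58.1 (squeezeVar, two-sided moderated test, Benjamini-Hochberg over all probes tested, threshold 0.05). A probe needed 2 arrays in each group of a contrast. Imputation was not used, so missing arrays only lower n. The code was tested on simulated data. Alternatives were another centring, scaling, baseline, array weights, a replicate block, S3WT arrays alone, gene averages and leaving out arrays. The alternatives for non-overlap were chosen after seeing the data.

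Probes with a single gene symbol (7348 of 8976; 399 have several, 1229 none; 7274 matched a RefSeq gene) could be named. Named genes were the called probes, filled to 10 a direction by p, up to 5 called a direction in other contrasts, up to 4 a gene list, and a fixed set of pathway genes; not all are described. Cdh5 and D5Ertd579e were named after their values were seen. The members and lists were chosen with earlier results of these data known.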

Additional observations from a re-analysis of the deposited data

Results flagged for a closer look

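Of 112 groups of early or late arrays checked, 13 had an array apart from the others by Dixon's test. Chance gives about 1 in 20 groups, and 4 of the 13 came from 2 h replicate 2, the array with the lowest quality weight. On that array Ifitm3 read -1.26, Gpatch2l 3.35, Timp2 (probe 8282) -1.61 and Mt1 -2.28. Among the late arrays, Creb3l2 (probe 3157) also read 6.63 on 4 h replicate 2 and Smurf2 (probe 4133) -1.19 on 2 h replicate 1. Among the early arrays, Fbxo9 read -1.78 on 0.3 h replicate 2, Lsm14b 3.92 and Smurf1 0.06 on 0.3 h replicate 3, Smurf2 -1.65 (probe 2306) and Actn1 -1.90 (probe 3775) on 0 h replicate 2, and Skil -0.56 and Smurf2 (probe 5215) -0.28 on 0 h replicate 1.

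The 1 h arrays, which no comparison used, all lay above the 6 early arrays for 9 of the 56 probes described, as they did for 1.59% of the 5645 probes measured on all 15 arrays. Many of the 56 were named for late values that differ from these same early arrays. Their 1 h means were 1.14 for Hbegf, 1.27 for Bhlhe40, 0.84 for Noct, 1.38 for Klf10, 0.87 and 0.61 for the probes 3052 and 6325 of Tgif1, 0.62 for Skil, 0.25 for Col5a2 (probe 3022) and -0.01 for Ets1. The response of S3WT differed from that of S2KO on 1 probe without a gene symbol, 1546, by -1.80.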

How the results depend on the processing

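No called gene reversed under an alternative. For the late response, 4 probes were called as reported. Scaling the arrays gave 47, array weights 43, the replicate block 12, no minimum of arrays 20, values at the cap kept 7, and genes averaged over probes 1. The 0 h arrays alone as baseline gave 20, the 0.3 h arrays alone 13 and no baseline 483, while the 2 h arrays alone as late gave 2 and the 4 h arrays alone 14. The S3WT arrays alone gave 0, as 4 groups or as 2. All 4 reported calls were also made with scaling, weights and the block, which shared 9 calls in all. Leaving out 1 array gave 2 to 24 calls. For 0.3 h against 0 h, 13 calls became 0 with the S3WT arrays alone, 22 with weights and 7 with probes on every array, and 4 to 22 without 1 array. For 4 h against 2 h, 1 call became 2 without centring, 14 with scaling, 0 with the S3WT arrays alone, 11 with weights and 2 with the replicate block, and 1 to 32 without 1 array. Against S2WT, leaving out 1 array gave 0 to 1 calls, and the other alternatives run gave 0. Against S3KO it gave 0 to 11, and weights gave 1. Against S2KO, 1 call became 0 with scaling or with the lines compared alone, 13 with weights, 3 with probes on every array and 6 with the replicate block, and 0 to 17 without 1 array. Probes with late arrays above early ones numbered 15 without centring. The cause of these shifts was not tested. Without centring, the median of all probes was 0.11 for 4 h against 2 h, 0.112 against S2WT and -0.145 against S2KO.

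Same-numbered S3WT arrays deviated together weakly: over 18 pairs r ran from -0.038 to 0.175 (other pairs, -0.124 to 0.076) and exceeded 0.1 in 3, short of the every pair required, so the numbers were not taken to pair the arrays. As a hint from the data alone, 11 of 12 arrays correlated best with their own number. The ratios carry no signal over background, so how dim a probe was is unknown.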
